A study of Homo sapiens
Mus musculus and Homo sapiens with 2 samples.

Results

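Labelled HEK293T cells were the 913 cells that the authors called human and assigned to the group given both 4-thiouridine (S4U) and iodoacetamide, of 13711 annotated cells in the series and 6307 in the mixture of HEK293T and NIH/3T3. HEK293T is a human embryonic kidney line that carries adenoviral genes and the SV40 large T antigen, and NIH/3T3 is a mouse fibroblast line. The cells took up 200 µM S4U, a uridine analog, for 6 h before harvest, were fixed, and were treated with iodoacetamide, which makes S4U read as a changed base in the cDNA. The controls were HEK293T cells of the same mixture with iodoacetamide only (1025 cells), with S4U only (455 cells) or with neither (559 cells). The labels of the mixture also mention dexamethasone, but the treatment protocol gives that drug to A549 cells, the other sample. The labels name no separate cultures within a group, so each counts as 1 sample, no comparison was tested and all values describe these libraries. In each cell and for each human gene, RNA that the authors called newly synthesised is called new, and the rest of the counts are called pre-existing. Pre-existing RNA also holds new molecules that were not called new.

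The level of an RNA is set by how fast it is made and how fast it decays. After a fixed labelling time, RNAs that turn over fast are mostly new and long-lived RNAs are mostly old, and unspliced transcripts, which are short-lived, are mostly new. In many mammalian cells the mRNAs of metabolic enzymes and ribosomal proteins are long-lived, whereas those of transcription factors and signalling regulators are short-lived. Counting both kinds of RNA in 1 cell gives a recent and an older reading of the same gene. In a growing line such as HEK293T the cell cycle is a main source of differences between cells.

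Labelled HEK293T cells held 6678383 human counts, of which 3653642 were new, or 54.7% (exact Clopper-Pearson 95% interval 54.67 to 54.75). The share was 1.24% in HEK293T cells with iodoacetamide only, 1.02% with S4U only and 0.888% with neither. No control cell exceeded 2.24%, whereas 906 of the 913 labelled cells exceeded 10%. The median labelled cell had 6673 counts (range 680 to 32925), 3589 of them new. Intervals cover counting error only. The counts came from cDNA whose primer carries 8 random bases (acgacgctcttccgatctNNNNNNNN, with the random bases as capital N, followed by the cell index). No source used here says how duplicates were handled. All 37 human mitochondrially encoded genes were listed at 0 in these cells, while the 37 mouse mitochondrial rows held 21661 counts, 46.2% of all their mouse counts. Mitochondrial RNA is therefore not described here. Apart from those rows, the median labelled HEK293T cell had 0.277% mouse counts, and 4 cells had more than 5%.

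**Figure D1:**
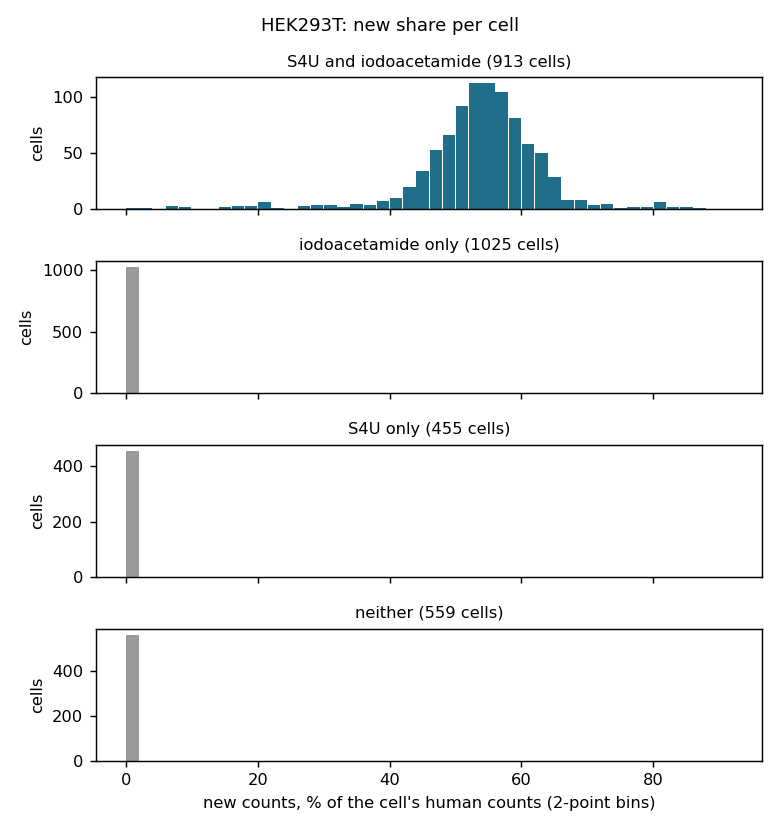
Share of new counts per HEK293T cell (horizontal axis, percent of the cell's human counts) as a histogram of cells (vertical axis) in the labelled group and the 3 control groups. Labelled cells centre on a median of 54.3% with tails to both sides, and all control cells lie at or below 2.24%.

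The 5 marker genes were followed first. DACH1 and FOXP2 encode transcription factors, MBNL1 a splicing regulator, AMD1 the decarboxylase that feeds polyamine synthesis and ENO1 the glycolytic enzyme enolase. DACH1 was counted in 82.3% of labelled HEK293T cells (exact interval 79.6 to 84.7) and in 0 of 425 labelled NIH/3T3 cells. For that 0 the exact interval reached up to 0.864% of cells with a count. FOXP2 was counted in 69.4% of labelled HEK293T and 0.706% of labelled NIH/3T3 cells, MBNL1 in 73.4% and 0.706%, AMD1 in 78.0% and 0.471%, and ENO1 in 98.2% and 1.65%. The median depths of the 2 lines, 6673 and 6695 counts of their own species, were close. These shares follow from the species call that chose the cells and check no more than that call. Of 10 genes associated with HEK293 cells, none was at 0, and VIM, IGF2BP1 and LIN28B were counted in 95.7%, 82.1% and 66.0% of cells. PAX2 and NES were counted in only 2.63% and 2.85%. Of 14 A549 marker genes, 5 were at 0 and 8 others had under 10 counts. The exception was CPS1, a urea cycle enzyme gene, with 388 counts in 30.01% of the cells.

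The markers split by the age of their RNA. DACH1 had 3.01 new and 0.403 pre-existing counts per cell, and 88.2% of its counts were new (87.0 to 89.3). Its share was 1.49% in cells with iodoacetamide only, 0.992% with S4U only and 0.889% with neither. FOXP2 was 88.0% new (86.4 to 89.5), against 1.40%, 1.111% and 0.758% in the same 3 controls. MBNL1 was 88.2% new (86.6 to 89.6), against 1.01%, 0.820% and 0.401%. AMD1 was 89.1% new (87.7 to 90.4), against 2.14%, 0.718% and 0.571%. For these 4 genes the labelled share lay far above all 3 controls, which did not exceed 2.14%. ENO1 had 2.73 new and 16.4 pre-existing counts per cell and was 14.3% new (13.7 to 14.8), against 0.795%, 0.296% and 0.300%. The 98.0% of cells with pre-existing ENO1 and the 82.0% with new ENO1 contrast with DACH1, which was pre-existing in 28.5% and new in 80.4% of cells. Whole counts per cell of DACH1 were lower in labelled cells (3.42) than with iodoacetamide only (5.29), S4U only (5.76) or neither (6.64), and the median cell was also shallower, with 6673 counts against 8519, 9381 and 10541. These counts per cell were not scaled to depth, and the part of depth in the difference was not tested.

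Across the 7357 genes with at least 200 whole counts, the median gene was 71.5% new, above the 54.7% of all counts together. The 10th percentile was 26.0% and the 90th 84.9%, with 429 genes under 20% and 2121 over 80%. The median depended on the minimum: it was 67.6% with at least 500 counts and 55.5% with at least 1000, close to the 54.7%. Each of the 7357 genes was then compared between new and pre-existing RNA by its share of all counts of that kind. By this measure 3756 genes (51.1%) were at least 2-fold higher in new RNA and 1356 (18.4%) at least 2-fold lower, and the median gene was higher in new RNA by 1.05 on the log2 scale. With that median set to equality, 1170 genes were higher and 2387 lower. The list counts below are to be read against 51.1% and 18.4%.

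Several groups of abundant housekeeping genes were mostly pre-existing. Among 81 cytosolic ribosomal protein genes the median new share was 14.7%, and 80 were at least 2-fold lower in new RNA. The only member outside this range, RPL7L1 at 68.0%, is a ribosome assembly factor that the list took in by its name, and RPL36 was lowest at 7.68%. Ribosomal protein genes have many near-identical pseudogenes, and no source used here says how reads shared with them were counted. Of 78 nuclear genes of the respiratory chain, 65 were lower and 0 higher in new RNA (median 20.3%, ATP5D lowest at 5.17%). Glycolysis had 12 of 15 lower, with TPI1 at 11.2%, GAPDH at 11.5% and LDHB at 17.5%. The exception was HK2, the inducible hexokinase of the first step, at 86.7% (264 counts). Actin cytoskeleton genes had 20 of 24 lower, with PFN1 (profilin) at 7.95%, CFL1 (cofilin) at 10.7% and ACTG1 at 23.2%. Proteasome genes had 21 of 30 lower and 0 higher, from PSMB3 at 8.80% to the lid subunit gene PSMD12 at 67.4%. Other growth and metabolism lists had smaller shares of lower genes. Cholesterol and fatty acid synthesis had 7 of 20 genes higher and 6 lower (median 48.9%), with FASN, the fatty acid synthase gene, at 19.7% and INSIG1, a sterol sensor partner, at 88.4%. Mitochondrial ribosomal proteins had 12 of 72 higher and 17 lower (median 54.0%), and aminoacyl-tRNA synthetases 0 of 20 higher and 8 lower (median 43.6%).

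Chaperones and translation factors had low medians but a few members with mostly new RNA. Cytosolic chaperones had 15 of 22 genes lower (median 32.6%), including HSP90AA1, the human gene with the most counts in this list (24935), at 22.2%. The stress-inducible co-chaperone gene BAG3 was at 82.2%. In the endoplasmic reticulum list, 9 of 17 were lower and 5 higher: the folding enzyme P4HB stood at 20.0% and XBP1, a transcription factor of the unfolded protein response, at 80.04%. Translation factors had 16 of 34 lower, among them EEF1A1 at 13.1% and EEF2 at 19.2%, while the cap-binding EIF4E was at 80.7%. Polyamine genes showed the same contrast within 1 pathway. OAZ1, which encodes the antizyme that sends ornithine decarboxylase to the proteasome, was at 14.9%, ODC1 itself at 33.3% and the synthases SMS and SRM at 27.9% and 32.0%, whereas AZIN1, the antizyme inhibitor, was at 85.6% and AMD1 at 89.1%.

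Several groups of regulators were mostly new. Of 27 transcription factor genes of neural and kidney development, 26 were at least 2-fold higher in new RNA and 0 lower, with a median of 85.8%, and HOXA9 was highest at 90.1%. Of 134 ZNF zinc finger genes, which encode DNA-binding factors, 121 were higher and 0 lower (median 82.4%). Of 9 genes in the list of MBNL, CLK and DYRK splicing and kinase genes, 8 were higher, with DYRK2 at 91.3% and QKI at 83.5%, and MBNL3 stood at 52.1% beside MBNL1 at 88.2%. The larger list of SR and hnRNP splicing factors had only 5 of 30 higher and 13 lower (median 41.5%), from HNRNPA1 at 12.3% to HNRNPF at 79.2%. Ubiquitin ligases and deubiquitinases had 24 of 32 higher and 0 lower. RLIM, MDM2 and USP1 were at 89.5%, 87.7% and 87.0%, and the giant ligase gene HUWE1 was lowest at 42.4%. Among 43 chromatin regulators 34 were higher and 4 lower, and the lower ones were the remodelling genes CHD3 (14.4%), CHD4 (15.6%), SMARCA4 (30.4%) and SMARCC1 (33.5%), against CHD1 at 85.7%, ARID1B at 85.2% and KMT2C at 84.0%. Of the 6 measured immediate early genes 5 were higher, with ID2 at 90.8%, ID3 at 89.6% and MCL1 at 86.9%, and ATF3 was at 53.3%.

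**Figure D2:**
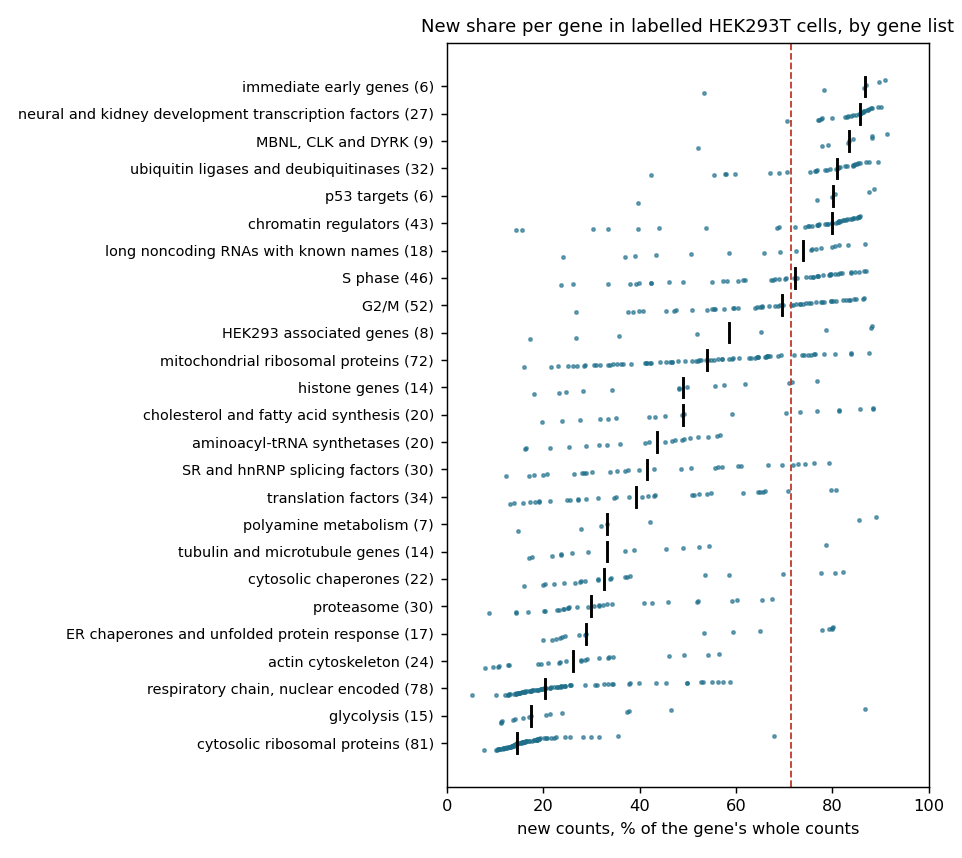
New share of each measured gene (dots, percent of the gene's whole counts on the horizontal axis) by gene list, with the number of measured genes in brackets, the list median as a black bar and the median of all 7357 genes (71.5%) as a dashed line. Ribosomal protein, glycolysis and respiratory chain genes lie mostly below 30%, and developmental transcription factors and ubiquitin ligases lie mostly above 75%.

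Genes of the cell cycle ranged widely. The S-phase list had 24 of 46 genes higher and 3 lower in new RNA, and the G2/M list had 25 of 52 higher and 2 lower. Both shares of higher genes were near the 51.1% of all genes, and lower genes were fewer than the 18.4% of all genes. In the S-phase list RRM1, the large subunit of ribonucleotide reductase, was at 23.8% and TYMS, thymidylate synthase, at 26.2%. The replicative helicase genes MCM7, MCM4, MCM6 and MCM2 were at 33.5%, 38.1%, 42.3% and 42.4%. CCNE2, E2F8 and USP1, which encode a cyclin, a transcription factor and a deubiquitinase, were at 79.6%, 85.5% and 87.0%. In the G2/M list CKS1B was at 26.8%, BIRC5 (survivin) at 37.6%, TOP2A, which encodes the topoisomerase of mitotic chromosomes, at 47.1%, CCNB1 at 75.2%, CDK1 at 80.6% and G2E3 at 86.6%.

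Noncoding genes were mostly new, with exceptions. The median new share was 81.9% over 68 lincRNA genes, 80.4% over 64 antisense genes, 77.3% over 53 processed transcripts, 74.7% over 52 pseudogenes and 70.9% over 7106 protein-coding genes. Reads of an antisense gene and of its partner cannot be told apart without strand, and no source used here says whether counting used it. LINC00486 held 18420 counts and was 0.304% new, close to its 0.228% in cells with iodoacetamide only. MALAT1, an abundant nuclear lncRNA, was 39.0% new, NEAT1, the scaffold of paraspeckles, 65.8% and KCNQ1OT1, an imprinted antisense RNA, 77.7%. Among snoRNA host genes SNHG6 was at 24.2%, SNHG8 at 37.0%, SNHG1 at 79.9% and SNHG15 at 86.8%. The protein-coding genes with the highest shares were the signalling ligand WNT5A at 94.9%, FBXO45 at 92.8% and KLHL9 at 92.6%, both adaptors of ubiquitin ligases, SERTAD2 at 92.2% and PNRC2, a decay cofactor, at 92.1%. The lowest were GPS2, a corepressor subunit gene, at 1.40%, SYNC, an intermediate filament gene, at 2.21%, the ATP synthase subunit gene ATP5D at 5.17%, FAM211A at 5.36% and BSG, which encodes the membrane glycoprotein basigin, at 5.47%. RPL23AP2, a pseudogene of a ribosomal protein gene, was 19.1% new in labelled cells and 17.2% with iodoacetamide only, so its labelled share was close to its own background.

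Transcript features moved with the new share across 7065 protein-coding genes matched to a GENCODE transcript by gene ID. Genes were ranked into 5 equal classes by new share. In the highest class (82.2% to 94.9%) the median gene spanned 86398 bases and its longest transcript had 28.96% U. In the lowest class (1.40% to 39.3%) the median span was 15639 bases and the median U content 23.3%. As a description across genes, which share cells and libraries, Spearman's rho with the new share was 0.465 for gene span and 0.384 for U content. Over the same 7065 genes rho was 0.448 for transcript length and 0.443 for U content near the transcript end. Among the 1790 genes spanning under 20000 bases rho was 0.282 for span and 0.357 for U content. In these genes it was higher for transcript length, at 0.498, and for U content near the transcript end, at 0.429. More U gives S4U more places to enter, and whether U content changes the call of new molecules was not tested. In the median cell intronic reads were 80.2% new and exonic reads 42.7%. Counts per gene were not split into intronic and exonic reads. The part of unspliced RNA in the gene shares, here and in the lists above, was not tested.

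Short motifs known to bind decay factors were counted in the last 500 bases of those transcripts, on the transcript strand. The AU-rich motif TATTTAT was held by 15.1% of all 7065 transcripts, and by 23.5% of the highest class and 7.57% of the lowest class by new share. The Pumilio motif TGTANATA was held by 15.0% of all, and by 24.6% of the highest and 4.95% of the lowest class, and 228 transcripts held both. Part of this went with base content: among transcripts with over 35% U in that window, the median new share was 81.0% with and 78.6% without the AU-rich motif, and 81.6% with and 78.1% without the Pumilio motif. Below 25% U these medians were 60.8% and 44.6%, and 63.1% and 44.4%. The sites below show what was counted, in genes at the high and the low end of new share among those with at least 500 counts. Capitals mark the motif, each sequence runs 5′ to 3′ from GENCODE release 29 (GRCh38), and a match is not evidence of binding.
YOD1 (chromosome 1, 90.1% new): tgcattgatttTATTTATgaggtgtatgac
UNC5C (chromosome 4): gtaataaattaTATTTATaagcaacaaa
RAB11FIP2 (chromosome 10, 89.6% new): gatagaagcatTATTTATaactgaagagta
RPS26 (chromosome 12, 13.0% new): cctcgcctagcTATTTATgtaaattaaact
ZBTB33 (chromosome X, 90.9% new): gctaaattaccTGTAAATAttctggatagg
KIF18A (chromosome 11, 88.2% new): cataaaatcatTGTAAATAttatttagtca
PGK1 (chromosome X, 13.7% new): atctatctatcTGTATATAgatatattaaa
YOD1 encodes a deubiquitinase, UNC5C a netrin receptor, RAB11FIP2 a membrane trafficking adaptor, ZBTB33 a zinc finger factor and KIF18A a mitotic kinesin, while RPS26 is a ribosomal protein gene and PGK1 a glycolytic one. The same letters thus occur in genes at both ends of the range.

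Cells differed in their new share far beyond counting error. The standard deviation of the share over 913 cells was 9.86 percentage points, against 0.672 from binomial counting alone, and the quartiles were 49.9% and 58.7%. A cell's share moved with its intronic reads: Spearman's rho over cells was 0.813 with the percentage of intronic reads and 0.208 with whole counts, in values that share the cells' reads. Intronic reads of the median cell were 80.2% new and exonic reads 42.7%. The second part of each cell name was taken as the reverse transcription index, which is an assumption. It accounted for 35.6% of the variance of the new share over 90 indices. For indices with at least 5 cells the pooled share ran from 24.8% to 61.5%. With the cells described next left out, these were 20.3%, 44.5% and 61.0%.

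At the edges of the distribution, 35 cells lay below 34.7% and 16 above 73.9%, more than 3 scaled median absolute deviations from the median cell, a limit chosen after seeing the data. The 35 low cells had a median new share of 20.98%, 13.0% intronic reads and 2264 counts. The 16 high cells had 80.7%, 76.5% intronic reads and 3188 counts. In the 862 other cells the medians were 54.5%, 30.9% and 6941 counts. Intronic reads themselves were 55.9% new in the median low cell, 83.8% in the median high cell and 80.3% in the others. Ribosomal protein genes made 933 of 10000 whole counts in the low cells and 88.0 in the high cells, against 633 in the others. The low and high cells held 1.56% and 0.839% of all counts, and the main values on variation below are given with and without them.

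**Figure D3:**
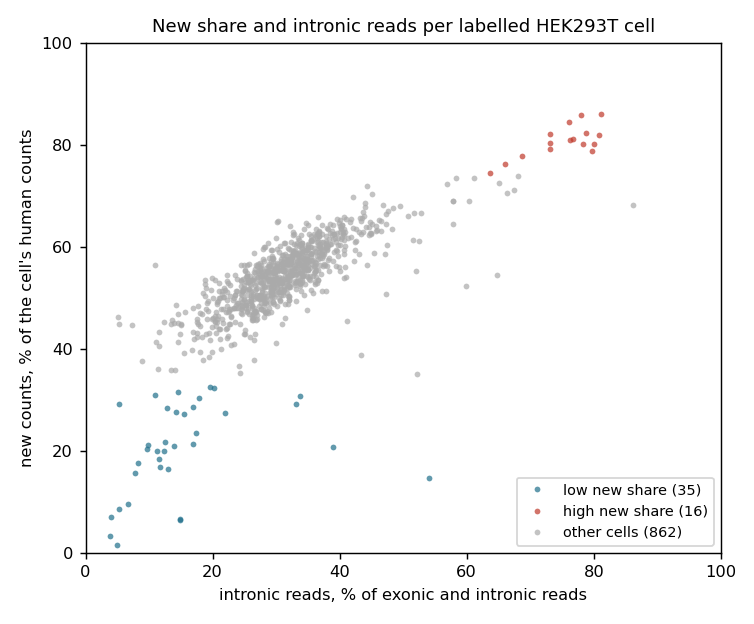
New share of each labelled HEK293T cell (vertical axis, percent of human counts) against its intronic reads (horizontal axis, percent of exonic and intronic reads). The 16 cells with high shares all have over 60% intronic reads, and most of the 35 cells with low shares have under 20%.

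A single low cell carried much pre-existing RNA of stress and immediate early genes. This cell had 15996 human counts, a new share of 30.7%, and 15.8% mouse counts, the highest of all 913 cells. Of its pre-existing counts 65 were of GADD45B and 24 of GADD45G, genes of the response to DNA damage and stress, against 0.312 and 0.0916 expected from its depth. It also held 38 of the 98 pre-existing counts of the stress transcription factor ATF3, 44 of the 150 of PMAIP1, a p53 target that promotes apoptosis, and 35 of the 54 of IER5. The immediate early list made 133 of 10000 pre-existing counts in this cell, 16.6 in the other 34 low cells and 1.59 in the 862 other cells. Excess squared CV, the variance between cells over the squared mean after the variance from counting is taken off, was 30.8 for the pre-existing sum of this list in all cells and 0.467 in the 862 others. The part of mouse RNA or of the cell's low share in this result was not tested.

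Cell-to-cell variation was measured for 607 genes with at least 500 new and 500 pre-existing counts, each scaled to the cell's total of that kind of RNA. A value of 0 means no variation beyond counting. The median excess squared CV was 0.112 in new and 0.125 in pre-existing RNA over all cells, and 0.109 and 0.112 over the 862 cells. The order of these medians depended on the setting. With each cell thinned to 1000 counts of each kind they were 0.139 in new and 0.126 in pre-existing RNA. A minimum of 1000 counts of each kind per gene gave 0.106 and 0.0998, and a minimum of 250 gave 0.127 and 0.172. In all cells 303 genes in new and 456 in pre-existing RNA exceeded 3 counting errors, and the median counting error was 0.0408 in new and 0.0338 in pre-existing RNA. A gene was counted as more variable in 1 kind of RNA when its excess there was over 3 counting errors and over 2 times that of the other kind. This held for 69 genes (11.4%) in new RNA and 158 (26.0%) in pre-existing RNA, and without the cells at the edges for 71 (11.7%) and 136 (22.4%). With each cell thinned to 1000 counts of each kind, it held for 4.94% and 9.88%.

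The kind of RNA that varied more went with the new share of the gene. Among 177 genes under 30% new, the median excess was 0.119 in new and 0.0750 in pre-existing RNA, and 47 genes were more variable in new RNA and 14 in pre-existing RNA. Among 113 genes over 60% new it was 0.114 in new and 0.260 in pre-existing RNA, with 6 and 58 genes. Without the cells at the edges the medians of the second class were 0.107 and 0.213. The scarcer kind of RNA thus had the higher value at both ends, and it also had the larger counting error. Cytosolic ribosomal protein genes, nearly all in the first class, had medians of 0.120 in new and 0.0647 in pre-existing RNA, with 22 of 61 more variable in new RNA, and medians of 0.115 and 0.0574 over the 862 cells. RPL3 had 0.269 and 0.0639, RPL8 0.226 and 0.0541, and the glycolytic TPI1 0.242 and 0.0632. SR and hnRNP splicing factors had 7 of 22 genes more variable in pre-existing and 0 in new RNA, where 26.0% and 11.4% of all genes were. HNRNPDL had 0.0964 in new and 0.629 in pre-existing RNA (0.416 without the cells at the edges), and SON, which encodes a nuclear speckle protein, 0.0505 and 0.473 (0.329).

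Genes with high variation in new RNA were of several kinds. The linker histone gene HIST1H1C was highest, at 2.53 ± 0.0469 (counting error) in new and 2.27 in pre-existing RNA. Over the 862 cells these were 2.49 and 2.21. It had no new counts in 646 of 913 cells, and the top 5% of cells held 42.4% of them. Next were the G2/M genes CENPE (1.20), a kinesin that moves chromosomes, and DLGAP5 (1.112), a spindle protein gene, which had 0.703 in the reverse transcription indices of lower new share. LRP1B (0.821), a very long receptor gene, followed, with 85 of its 3687 new counts in 1 cell and 0.491 when the top 1% of cells was left out. MKI67 (0.690), the proliferation antigen, TOP2A (0.626), CENPF (0.621), the secreted guidance factor SLIT2 (0.536) and TPX2 (0.529) were next. In the 862 cells CENPE had 1.21, DLGAP5 1.097, LRP1B 0.832, MKI67 0.686, TOP2A 0.629, CENPF 0.608, SLIT2 0.537 and TPX2 0.515. HSP90B1, an endoplasmic reticulum chaperone gene, had 0.696, but 38 of its 1090 new counts came from 1 cell and the next highest cell had 10. Within the cells of the central 80% of depth, which leave that cell out, HSP90B1 had 0.104.

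In pre-existing RNA some of the highest values fell when the cells at the edges were left out. BRD2, which encodes a bromodomain protein, was at 4.46 over all cells and 0.300 over the 862 cells, where new BRD2 was at 0.131. HMGB2, a chromatin protein gene of the G2/M list, was at 2.12 and 0.523, HP1BP3, a heterochromatin protein gene, at 1.31 and 0.203, SLIT2 at 1.23 and 0.491 and SPEN, a repressor gene, at 1.08 and 0.497. The cell with 15.8% mouse counts held the most pre-existing counts of each of these 5 genes, 33 of 516 for BRD2. HIST1H1C (2.21), CENPE (1.19), MALAT1 (1.08), LRP1B (0.990) and TOP2A (0.820) were among the highest in the 862 cells. For MALAT1 the same cells gave 0.251 in new RNA.

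**Figure D4:**
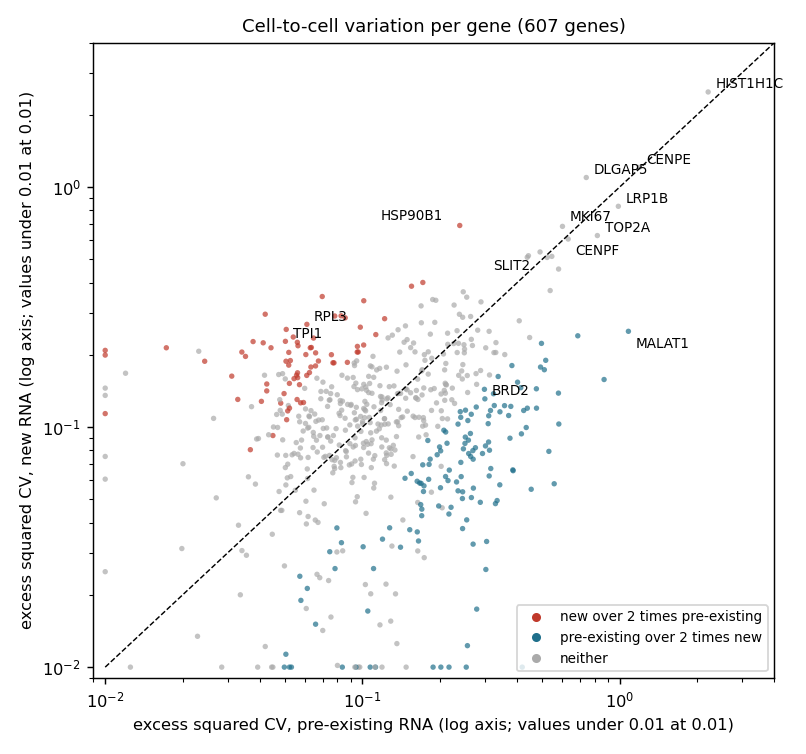
Excess squared CV of new RNA (vertical log axis) against that of pre-existing RNA (horizontal log axis) for 607 genes over 862 labelled HEK293T cells, with the 51 cells of extreme new share left out. Coloured genes are over 2 times and 3 counting errors higher in 1 kind of RNA, 71 in new and 136 in pre-existing RNA. HIST1H1C, CENPE, LRP1B and TOP2A lie near the dashed line of equality, and MALAT1 lies to its right.

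New and pre-existing RNA of a gene varied together in most cases. Over the 247 genes past 3 counting errors in both kinds, the correlation of the 2 over cells, corrected for counting error, had a median of 0.408 (10th percentile 0.105, 90th 0.739; median 0.415 over the 862 cells), and 2 values exceeded 1, which counting error allows. Only this correction makes the values comparable, and they carry no test. For some genes this correlation was high, although the single highest cell could differ between the 2 kinds, as it did for HIST1H1C and LRP1B. In the 862 cells r was 0.842 for HIST1H1C, 0.814 for LRP1B, 0.939 for SLIT2, 0.968 for LINC00669 and 0.874 for FHIT. Over all cells LRP1B, SLIT2, LINC00669 and FHIT had 3687, 6026, 5053 and 3984 new counts against 584, 1114, 761 and 749 pre-existing ones. HIST1H1C had 781 and 783. RNA made during labelling but missed by the calling is counted as pre-existing, and its part in these correlations was not tested. FHIT and WWOX span fragile sites, as LRP1B does. LRP1B, SLIT2 and FHIT varied almost independently of each other in new RNA (r from −0.0401 to 0.117), and so did WWOX and FHIT (0.144), while LINC00669 and the glypican gene GPC6 had 0.541. In pre-existing RNA WWOX and FHIT had 0.785 and LINC00669 and GPC6 0.763.

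Several mitotic genes were high in the same cells in new RNA, with r of 0.856 between TOP2A and CENPE and 0.805 between TOP2A and MKI67. In new RNA HMGB2 followed them less, with 0.399 with TOP2A and 0.467 with CENPE. In pre-existing RNA TOP2A had only 0.334 with CENPE and 0.347 with MKI67. There HMGB2 had 0.476 with TOP2A and 0.489 with CENPE. In the same 862 cells r between new and pre-existing RNA was −0.0226 for DLGAP5, 0.268 for CENPF, 0.342 for CENPE, 0.510 for TPX2, 0.605 for MKI67 and 0.607 for TOP2A, values on both sides of the median of 0.415 over genes. Outside the list, SYNE2, a nuclear envelope gene, had 0.0361. The genes also differed in how their older RNA related to the rest of the list. Pre-existing TOP2A and MKI67 had r of 0.551 and 0.549 with the new RNA of the other G2/M genes, whereas pre-existing CENPF, SMC4 and DLGAP5 had 0.133, 0.0117 and −0.0436. New DLGAP5 and TPX2 had r of 0.521 and 0.486 with the pre-existing RNA of the other G2/M genes, new TOP2A and MKI67 0.255 and 0.200, and new TMPO, a nuclear lamina gene, −0.323.

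Summed per cell, the 2 cell cycle lists were opposed in new RNA, with weaker values in pre-existing RNA whose sign depended on the scaling. The S-phase list had a median of 84.9 per 10000 new counts (5th to 95th percentile 34.8 to 151) and 54.8 per 10000 pre-existing counts (25.4 to 94.8). The G2/M list had 82.6 per 10000 new (34.8 to 217) and 61.6 per 10000 pre-existing counts (20.3 to 139). Excess squared CV of the S-phase sum was 0.134 in new and 0.0641 in pre-existing RNA over all cells, and 0.134 and 0.0454 over the 862 cells. For the G2/M sum it was 0.282 and 0.276, and 0.281 and 0.212. Cells rich in new S-phase RNA were poor in new G2/M RNA, with a corrected r of −0.689 over all cells and −0.690 over 862. In pre-existing RNA the corresponding r was −0.0869 over all cells and −0.212 over 862. New S-phase RNA and pre-existing G2/M RNA had −0.469, and pre-existing S-phase RNA and new G2/M RNA had 0.0897 (−0.545 and 0.121 over 862). New with pre-existing RNA of the same list had r of 0.203 for S phase and 0.383 for G2/M (0.240 and 0.431 over 862). With each cell scaled by its whole counts instead, these were 0.0575 and 0.221, pre-existing S-phase with new G2/M RNA turned to −0.0687 and both pre-existing sums to 0.1502, while both new sums kept −0.591.

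Some of these values moved with the reverse transcription index. In the 389 cells of the 45 indices with lower new share (51.1% pooled) and the 524 cells of the 45 with higher new share (56.7%), r between new S-phase and new G2/M RNA was −0.664 and −0.697. For the pre-existing sums of both lists it was 0.0379 and −0.253, and for new with pre-existing S-phase RNA 0.0334 and 0.357. The separation in new RNA was therefore present in both sets of indices, and the weaker values with pre-existing RNA differed between them. As a further measurement, Spearman's rho of the lists with the percentage of intronic reads was −0.0367 for new S-phase RNA and −0.199 for new G2/M RNA, against −0.731 for new ribosomal protein RNA, in values that share the cells' reads.

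**Figure D5:**
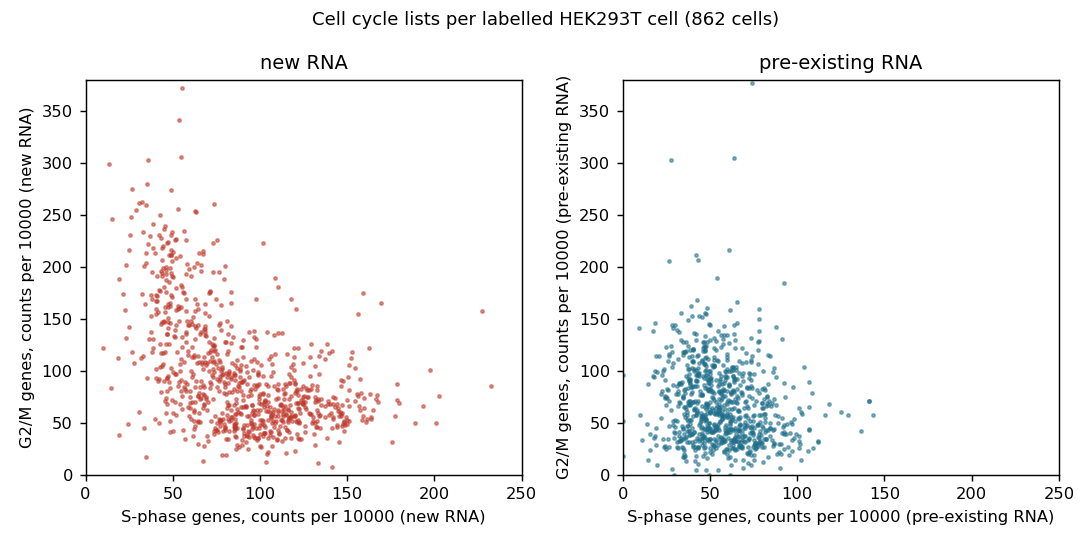
Counts per 10000 of the G2/M list (vertical axis) against the S-phase list (horizontal axis) in each of 862 labelled HEK293T cells, in new RNA on the left and pre-existing RNA on the right. In new RNA cells high in 1 list are low in the other, and in pre-existing RNA the points form 1 cloud.

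Among the other lists, histone genes had an excess of 0.346 in new and 0.238 in pre-existing RNA, above the S-phase list in both, with r of 0.842 between the 2, and this list includes HIST1H1C. Over the 862 cells these were 0.338, 0.207 and 0.886. Named lncRNAs, which include MALAT1, had 0.0313 in new and 0.342 in pre-existing RNA (0.0292 and 0.310 over the 862 cells). Pre-existing histone RNA had r of 0.523 with pre-existing S-phase RNA and 0.186 with new S-phase RNA (0.537 and 0.204 over the 862 cells). The sums of chromatin regulators and ubiquitin ligases had low values in new RNA, at 0.00866 and 0.00841 (0.00854 and 0.00803). Their single genes did not: the medians in new RNA were 0.0926 over 8 genes and 0.0985 over 4, near the 0.112 of all 607 genes. Summed, ribosomal protein genes had 0.0716 in new and 0.0346 in pre-existing RNA (r of 0.670, and 0.688 over the 862 cells), and their pre-existing sum had r of −0.484 with that of the G2/M list (−0.436 over 862 cells). Among the developmental transcription factors, summed at 0.0509 in new RNA, the marker genes DACH1 and FOXP2 had 0.333 and 0.354 in new RNA, against 0.0931 for MBNL1 and 0.0506 for AMD1. New AMD1, with a counting error of 0.0200, did not exceed 3 counting errors. In their scarce pre-existing RNA DACH1 had 0.402, FOXP2 0.699, MBNL1 0.517 and AMD1 1.86, with counting errors of 0.102, 0.180, 0.171 and 0.168. Over the 862 cells the values were 0.373, 0.531, 0.166 and 0.119, and those of MBNL1 and AMD1 were below their errors over all cells. With 368, 209, 220 and 224 pre-existing counts, each of these genes fell short of the minimum set for the variation measures.

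Labelled NIH/3T3 cells gave another picture for the cell cycle lists, with lower labelling. Their new share was 33.1%, and intronic reads of the median cell were 45.6% new against 80.2% in HEK293T. In HEK293T the r between new and pre-existing RNA was 0.203 for S phase and 0.383 for G2/M, whereas in 425 NIH/3T3 cells it was 0.914 and 0.981 for the mouse genes of the same names. The HEK293T values depended on the scaling, as given above, and the NIH/3T3 values were computed with the first scaling only. The excess of the sums in NIH/3T3 was 0.153 in new and 0.1505 in pre-existing RNA for S phase, and 0.4005 and 0.3907 for G2/M. The part of the lower labelling in this difference was not tested, and each line counts as 1 sample.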

How the data were processed

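Per the submitters' processing notes, the authors worked with the builds hg19 and mm10 and the tools Picard 1.105, SAMtools 1.3, Trim Galore 0.4.1 and STAR 2.5.2b. No source used here describes their settings, how new molecules were called, or how duplicates and strand were handled. The deposited tables hold unnormalised counts of each gene in each cell, for whole and for new RNA, and the deposited annotation holds read counts per cell, species call, labelling group and, as the authors' values, a fraction per cell (median 49.95% in labelled HEK293T) whose definition is not given. Of 6307 cells 6305 were in both matrices. New counts never exceeded whole counts, and pre-existing counts are their difference. No cell name was shared with the A549 sample. No doublet caller was run: 46 of 1384 labelled cells (3.32%) called as both species were left out, and doublets within HEK293T remain.

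Human genes were taken by identifier. Shares carry exact Clopper-Pearson 95% intervals. Excess squared CV was the summed squared deviation of a gene from its expected count (cell total of that RNA times the gene's share) less the summed expected counts, over the summed squared expected counts, with the square root of 2 over that last sum as the counting error. Correlations are covariances so scaled over the root of both excess values. These were tested on simulated data. Python 3.11.15, numpy 2.4.6, scipy 1.17.1, pandas 2.3.3 and matplotlib 3.10.9 were used. Ratios of levels add 0.5 to each count. XIST is not reported and was left out of the variation measures. Named genes were the markers, the highest, lowest and best counted members of each list, the extremes of each gene type and the highest in each measure of variation; others were chosen after their values were seen. Some genes that this rule names are not reported here. The members and lists were chosen with earlier results of these data known.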

Additional observations from a re-analysis of the deposited data

Results flagged for a closer look

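The annotation gave 53 human cells of the mixture no labelling group, and they entered no comparison. Of their 21600 human counts 18.9% were new (exact interval 18.4 to 19.5), above the 1.24% of HEK293T cells with iodoacetamide only. Single cells ran from 0.488% to 82.3%, with a median of 3.00%, and 35 of the 53 cells had under 10% and 14 over 30%. Their median depth was 360 counts, against 6673 in labelled HEK293T cells.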

How the results depend on the processing

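Without replicates, a share was taken as unmoved inside its 95% interval, a count, median or excess value within 1.5 times, and an r within 0.1. No paired analysis was possible because the labels name no separate cultures within a group. The new share of all counts, 54.7%, was 54.3% in protein-coding genes, 54.4% in cells of the central 80% of depth, 53.5% less the iodoacetamide-only background and 55.0% without the 51 cells of extreme share. Leaving out mitochondrially encoded genes changed nothing, since they are at 0. The genes at least 2-fold higher in new RNA numbered 1774 with a minimum of 500 counts, where 919 were lower. That minimum admits fewer genes, and their number is not given here, so these counts do not show whether the share of genes changed. With the median ratio set to equality 1170 genes were higher and 2387 lower, and 859 were lower at 3-fold. The spread of the share between cells was 6.39 points without the 51 cells. The share of genes more variable in new RNA was 4.94% after thinning (78 cells too shallow) and 6.59% in the indices of lower new share, and in pre-existing RNA 9.88% after thinning. Scaled by whole totals, r between new and pre-existing RNA was 0.0575 for S phase and 0.221 for G2/M, that of pre-existing S-phase with new G2/M RNA −0.0687, and that of both pre-existing sums 0.1502. In the indices of lower and higher new share, excess of the pre-existing S-phase sum was 0.115 and 0.0371, r of new with pre-existing S-phase RNA 0.0334 and 0.357, that of new S-phase with pre-existing G2/M RNA −0.316 and −0.590, and that of both pre-existing sums 0.0379 and −0.253 (−0.212 without the 51 cells). The causes were not tested. The sets without the 51 cells and by index were chosen after seeing the data. Depth limits the variation measures to 607 genes.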
